A study of Mus musculus with 18 samples.

Results

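E0771 is a mouse mammary tumour cell line of C57BL6 origin, and the comparison described here sets its libraries carrying MRTFB against those carrying the control pRetrox construct. The 6 libraries were taken by their labels, 3 for MRTFB and 3 for control, out of 18 in the series. The control group is labelled only as control, both groups and every other group received doxycycline at 500 ng/mL for 48 h to induce the transgene, and the cells grew in RPMI medium with serum. The other 12 libraries are E0771 cells with MRTFA (3) and B16F10 melanoma cells with control, MRTFA or MRTFB (3 each), and they enter only where named. No label tells if replicates came from separate cultures or if a line was 1 clone, so p-values reflect library-to-library spread alone, which may be technical. Levels are given as scaled reads, that is reads divided by the size factor of the library. Changes are differences of log2(scaled reads + 1), MRTFB minus control, which understate the change of genes with few reads.

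MRTFB, encoded by the gene listed here under its older symbol Mkl2, and its paralog MRTFA (Mkl1) are coactivators of serum response factor (SRF). Both bind monomeric actin through their RPEL motifs. When actin polymerises they are released, enter the nucleus and activate SRF at CArG boxes, short elements with an AT-rich core between a CC and a GG. Known targets are the actins, smooth muscle contractile genes, actin regulators and secreted matricellular proteins such as Ccn1 and Ccn2 (Cyr61 and Ctgf in the file).

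The bases upstream of 3 contractile genes that rose are shown because they hold the elements named above. Each is the 250 bases before the RefSeq start site (GRCm38.p6), 5′ to 3′ in the direction of transcription, and capitals mark 10-base matches to the CArG consensus with at most 1 letter off it. Acta2, smooth muscle alpha-actin, is at chr19:34255374-34255623 on the minus strand.
Acta2: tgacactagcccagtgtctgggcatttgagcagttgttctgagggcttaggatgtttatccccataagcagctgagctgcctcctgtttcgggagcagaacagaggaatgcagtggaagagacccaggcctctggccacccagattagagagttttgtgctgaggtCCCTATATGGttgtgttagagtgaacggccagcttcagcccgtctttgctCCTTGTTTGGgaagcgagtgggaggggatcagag
Acta1, skeletal muscle alpha-actin, is at chr8:123894776-123895025 on the minus strand.
Acta1: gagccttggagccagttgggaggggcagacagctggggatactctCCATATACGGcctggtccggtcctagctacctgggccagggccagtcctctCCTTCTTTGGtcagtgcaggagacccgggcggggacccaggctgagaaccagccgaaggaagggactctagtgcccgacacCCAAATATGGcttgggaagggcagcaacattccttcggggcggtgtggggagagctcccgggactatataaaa
Myl9, the regulatory light chain of smooth muscle myosin, is at chr2:156775214-156775463 on the plus strand.
Myl9: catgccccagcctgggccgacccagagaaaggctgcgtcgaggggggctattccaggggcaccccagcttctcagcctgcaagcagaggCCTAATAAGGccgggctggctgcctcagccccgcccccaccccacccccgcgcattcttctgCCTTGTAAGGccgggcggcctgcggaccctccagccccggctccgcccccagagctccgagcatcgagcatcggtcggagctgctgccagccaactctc
The Acta1 site that begins 73 bases upstream of the start and the Myl9 site that begins 161 bases upstream match the consensus exactly. The others, both of Acta2 at 84 and 34 bases included, differ from it by 1 letter. Of the 32 genes called higher below, 22 had a promoter window of 300 bases (250 before to 50 after the start) in the RefSeq table. Tagln, Actg2, Myh11 and Ctgf were among those without a window, so the shares leave them out, whereas Mkl2 is among the 22. An exact CArG box (CC, then 6 bases that are A or T, then GG, on either strand) lay in 2 of these 22 genes (9.09%), against 1.63% of all 32851 windows and 1.67% of 9692 tested genes. With 1 letter off allowed the share was 8 of 22 (36.4%), against 21.1% of all windows and 1938 of the 9692 tested genes. TATAAA was found in 8 of 22 (36.4%; 13.6% of windows, 8.89% of tested genes). GGAATG, the core of the element bound by TEAD factors, was found in 9 of 22 (40.9%; 14.7% and 14.3%). Genes with several windows count once if any window matched, and a match may overlap that of another motif. These shares are descriptions, with no test.

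Depth was alike in both groups, from 31626969 to 33773384 reads per control library and 27607055 to 34173182 per MRTFB library, so that 0 reads allows up to 2.80 to 3.38 scaled reads. Melanocyte markers, which would show a swap with the other line, summed to 523 to 642 scaled reads against 609697 to 776963 in B16F10 controls, with Tyr, Gpr143, Oca2 and Sox10 averaging under 3. Of 10 mammary epithelial markers 6 were in the table, and they summed to 5845 to 7924 in control and 6080 to 9457 in MRTFB libraries against 34.4 to 77.9 in B16F10 controls. Krt8 made up most of the E0771 sum, with 5689, 7794 and 6676 in control and 5803, 7363 and 8996 in MRTFB libraries. Cdh1 went the other way, with 4.03, 5.01 and 4.67 in E0771 controls against 74.1, 66.2 and 27.7 in B16F10 controls. Krt19 averaged under 3 in E0771. Replicate 3 stood apart in both groups by high interferon-response genes. The median of 28 such genes, relative to the mean of the 6 libraries, was 1.03 in control replicate 3 and 1.56 in MRTFB replicate 3, and between −1.33 and −0.25 in the other 4 libraries. Mitochondrial genes took the largest share of reads in replicate 1 of both groups (0.918% and 1.16%, against 0.486% to 0.562% in the other 4 libraries). Control and MRTFB samples with equal replicate numbers deviated together (r = 0.508, 0.459 and 0.553 over genes). The number entered the fit as a block, as the definition of the comparison had set.

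With MRTFB, a short list of genes rose, with the smallest p for Tagln, Nppb and Optc. The lists of actin isoforms, smooth muscle contractile genes, actin cytoskeleton regulators and extracellular matrix, 95 tested genes in all, held 14 of the 32 genes that rose. These 4 of 25 lists were pooled for this count, and the lists were written with earlier results of these data known. The count is therefore a description and not a test. Of 13189 genes with at least 10 scaled reads in at least 3 of the 9 E0771 libraries, 33 had a Benjamini-Hochberg adjusted p below 0.05 and were called (limma, two-sided), which is 0.25% of the tested genes. 32 rose (0.243%) and 1 fell (0.00758%). The rises ranged from 0.47 to 3.54 with a median of 1.46, and 21 of them were at least 2-fold. All 33 moved the same way in the 3 pairs of equal replicate number, and in 31 the 2 groups did not overlap; over all tested genes 3.04% lay entirely higher and 2.56% entirely lower. The median of all tested genes was −0.01. Optc, Myh11, Kcnmb1 and Cobl were under 10 in every control library and passed the filter only through libraries with a transgene. Psd3 (9.06, 10.01 and 9.34 in control) and Slamf9 (7.05, 10.01 and 16.8) likewise needed transgene libraries to pass. Abcb11 was under 10 in every MRTFB library and passed through the other E0771 libraries. For such genes the filter itself favours a difference between groups.

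The number of calls depended on how the spread was estimated. It was 19 without the replicate block (18 higher, 0.136% of tested genes, and 1 lower), 30 by edgeR and 70 by DESeq2 with it, and ranged from 9 to 244 over the alternatives that kept all 6 libraries. The 244, from limma on the 6 libraries alone, were 196 higher and 48 lower. Tagln, Optc and the predicted gene Gm43455 were called under every one of those 15 alternatives. Without replicate 3 in all groups 42 genes were called, 27 of the 33 among them. The calls of Tagln, Nppb, Optc, Cyr61, Ctgf, Acta2, Lmod1 and Actg2 were kept when any single control or MRTFB library was left out, and 12 calls were lost whichever of the 6 was left out.

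**Figure D1:**
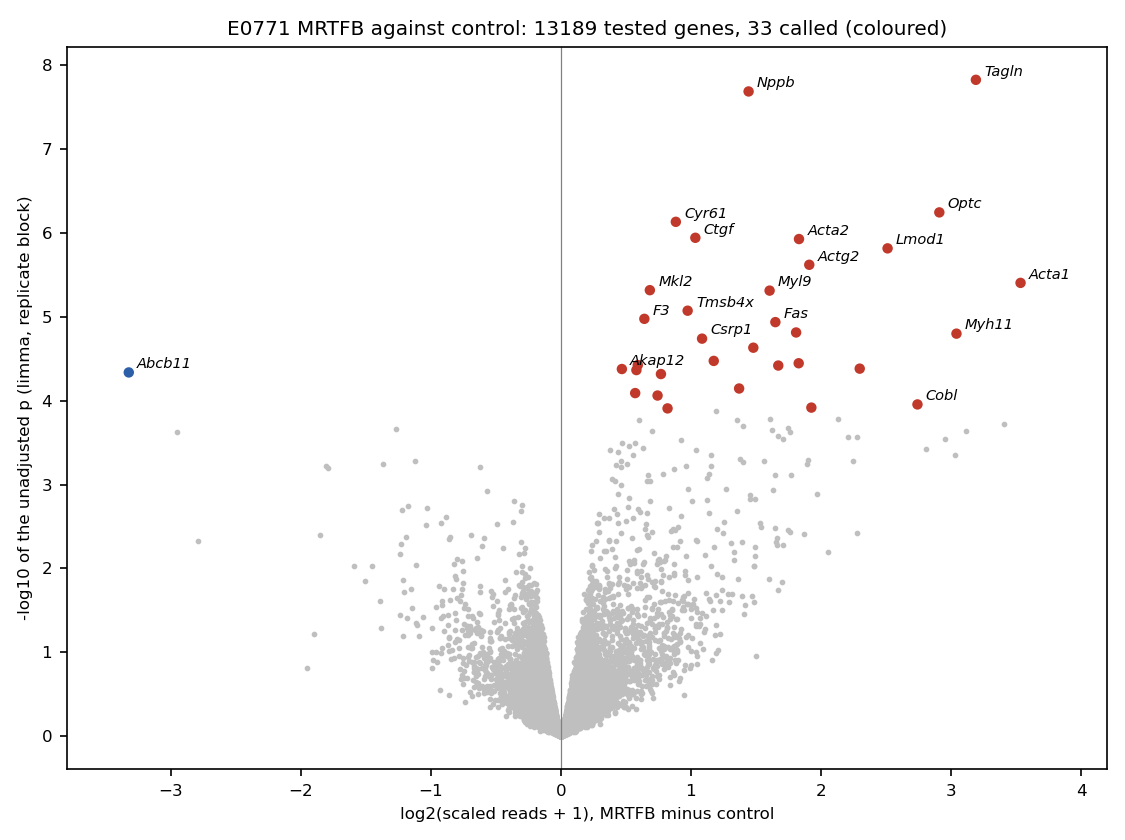
Each of 13189 tested genes by its log2 difference (MRTFB minus control, horizontal) and −log10 of its unadjusted limma p with the replicate block (vertical). The 33 called genes are coloured, 32 red on the right and Abcb11 in blue on the left, and selected ones are named.

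The transgene's own gene rose less than 2-fold. Mkl2 (ENSMUSG00000009569.14, chromosome 16, 13256481 to 13417529; gene positions here and below are of GENCODE M21, GRCm38) had 1235, 1349.9 and 1446 scaled reads in the control libraries and 2056, 2206 and 2211 in the MRTFB libraries (log2 0.68, SE 0.07, adjusted p = 0.00585), and the groups did not overlap. Whether the reads come from the transgene or from the endogenous gene cannot be told apart here, since the construct's species and sequence were not known here. The call was lost without control replicate 1 (0.68), control replicate 2 (0.68), control replicate 3 (0.69), MRTFB replicate 1 (0.65) or MRTFB replicate 2 (0.67). Mkl1 had 1124, 1514 and 1408 scaled reads in the control libraries and 1037, 1341 and 1699 in the MRTFB libraries, with overlapping groups (log2 −0.01, 95% interval −0.31 to 0.30). Of 21 genes of MRTF-SRF signalling 19 were tested, and Mkl2 alone was called, with a list median of −0.01. Among the uncalled members were the kinase gene Limk2 (−0.22, adjusted p = 0.782), the formin gene Diap2 (0.24) and the cofilin gene Cfl2 (−0.11).

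Among the 6 actin genes, the 3 muscle isoforms Acta2, Actg2 and Acta1 rose and none fell. The smooth muscle isoform Acta2 (ENSMUSG00000035783.8, chromosome 19, 34241090 to 34255590), whose upstream sequence is shown above, had 23963, 16568 and 18722 scaled reads in the control libraries and 59670.4, 70463 and 79723 in the MRTFB libraries. The group means were 19751 ± 3804 and 69952 ± 10036 (SD, n = 3), a ratio of 3.54 (log2 1.83, SE 0.16, adjusted p = 0.00261). Enteric smooth muscle gamma-actin Actg2 (ENSMUSG00000059430.14, chromosome 6, 83512905 to 83536265) had 354, 194 and 204 scaled reads in the control libraries and 872, 849 and 1016 in the MRTFB libraries (log2 1.91, SE 0.19, adjusted p = 0.00396). In the controls replicate 1 was the highest of the 3 for both genes, and in neither did the groups overlap. The skeletal isoform Acta1 (ENSMUSG00000031972.4, chromosome 8, 123891769 to 123894751) had 33.2, 29.04 and 24.3 scaled reads in the control libraries and 180.1, 365 and 610.2 in the MRTFB libraries, the widest spread of the 3 among MRTFB libraries, and the highest fitted rise of all called genes (log2 3.54, SE 0.36, adjusted p = 0.00579). Its call was lost without control replicate 3 (3.31). The cytoplasmic actins, which every cell uses, were higher in all 3 MRTFB libraries than in any control but not called: Actb had 117347, 134757 and 140825 scaled reads in the control libraries and 161225, 189861 and 214053 in the MRTFB libraries (log2 0.52, 95% interval 0.25 to 0.79, adjusted p = 0.220). Actg1 had 18077, 25411 and 28288 scaled reads in the control libraries and 29146, 36622 and 38914 in the MRTFB libraries (log2 0.56, adjusted p = 0.0923). All 6 actin genes, cardiac Actc1 included, were higher in all 3 pairs, against 12.1% of all tested genes (13.8% were lower in all 3), and the list median was 1.57. The actins are close in sequence and may share reads, as neither strandedness nor the handling of ambiguous reads is stated in the labels.

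Smooth muscle contractile genes were the list with the most called members. Of 28 listed genes 26 were tested and 8 rose, against 0.243% of all tested genes. The list median was 0.83, none fell, and 18 were higher in all 3 pairs, against 12.1% of all tested genes. The 8 were Acta2, Actg2, Tagln, Myl9, Myh11, Lmod1, Csrp1 and Kcnmb1. Tagln (ENSMUSG00000032085.4, chromosome 9, 45929619 to 45936058), transgelin, an actin-binding protein of smooth muscle, had 484, 396 and 268 scaled reads in the control libraries and 2996, 4127 and 3194 in the MRTFB libraries, a ratio of means of 8.99 (log2 3.19, SE 0.17, adjusted p = 0.000136). Control replicate 3 was the lowest of the 6. Myl9 (ENSMUSG00000067818.6, chromosome 2, 156775420 to 156781658), the myosin light chain gene with the exact CArG match above, had 493, 419.6 and 584 scaled reads in the control libraries and 1343, 1453 and 1754 in the MRTFB libraries (log2 1.61, SE 0.17, adjusted p = 0.00585). Its call was lost without control replicate 1 (1.61). Lmod1 (ENSMUSG00000048096.7, chromosome 1, 135324807 to 135368065), leiomodin, which nucleates actin filaments in smooth muscle, had 29.2, 24.03 and 40.2 scaled reads in the control libraries and 128, 145 and 306 in the MRTFB libraries (log2 2.51, SE 0.23, adjusted p = 0.00288), with MRTFB replicate 3 above the other 2. The LIM-domain gene Csrp1 was abundant from the start and had 5959, 5918 and 8835 scaled reads in the control libraries and 11736, 14425 and 17621 in the MRTFB libraries (log2 1.09, SE 0.13, adjusted p = 0.0141). Without the block its adjusted p was 0.0596, and its call was lost without control replicate 1 (1.09), control replicate 2 (0.95), MRTFB replicate 1 (1.17) or MRTFB replicate 2 (1.07).

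A pair of the contractile genes rose from a level near the limit of detection. Myh11, the smooth muscle myosin heavy chain, had 2.01, 3.004 and 3.74 scaled reads in the control libraries and 25.9, 19.8 and 56.3 in the MRTFB libraries, in all 9 recovered reads against 95, a ratio of 11.3 (95% interval of the reads 5.71 to 25.5; log2 3.04, SE 0.37, adjusted p = 0.0131). Kcnmb1, the accessory subunit of the calcium-activated potassium channel of smooth muscle, had 2.01, 3.004 and 2.80 scaled reads in the control libraries and 14.6, 10.4 and 29.8 in the MRTFB libraries, 8 reads against 51, a ratio of 6.83 (3.22 to 16.7; log2 2.30, SE 0.32, adjusted p = 0.0228). In both genes every MRTFB library was above every control. Neither was called by edgeR with the block. The Myh11 call was lost without control replicate 1 (2.87), control replicate 2 (3.16), control replicate 3 (3.11) or MRTFB replicate 1 (3.13), and the Kcnmb1 call without control replicate 1 (2.18), control replicate 2 (2.53), control replicate 3 (2.18) or MRTFB replicate 1 (2.36). These intervals, from exact binomial limits, cover counting error only. Smooth muscle genes are also expressed by fibroblasts, whose 7 markers in the table summed to 2444 to 4659 in control and 2856 to 7813 in MRTFB libraries. Most of that rise was Col1a1, whose values are given below. Without it the other 6 summed to 1907 to 2124 in control and 1837 to 2021 in MRTFB libraries, mostly Pdgfra and Pdgfrb. Pdgfra had 823, 898 and 1007 in control and 827, 731 and 811 in MRTFB libraries, and Pdgfrb 1054, 1125 and 867 and 1098, 992 and 978. Col6a3 was higher in each pair (62.4, 91.1 and 31.8 in control, 92.3, 114 and 39.7 with MRTFB). Dcn and Thy1 averaged under 3 in both groups. In bulk RNA, more cells of a kind and more RNA per cell cannot be told apart.

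**Figure D2:**
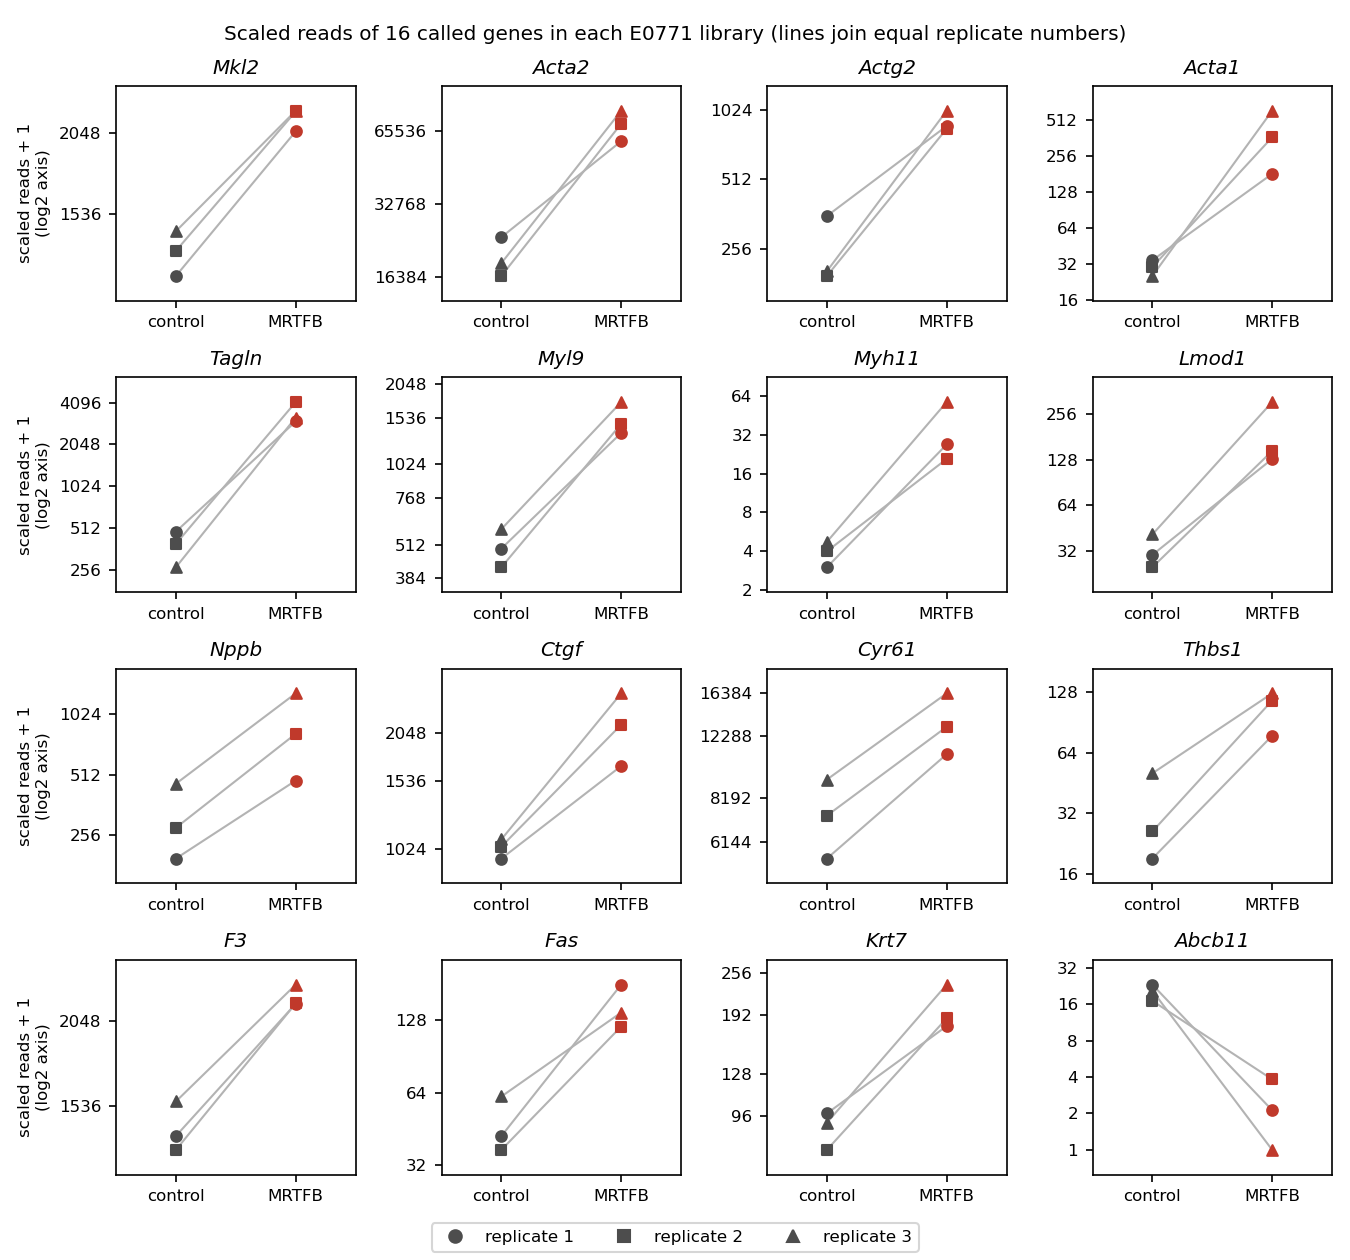
Scaled reads plus 1 on a log2 axis for 16 called genes in each control (grey) and MRTFB (red) library, with lines joining equal replicate numbers. In all 16 genes the 3 MRTFB libraries lie on one side of the 3 controls, above them in 15 genes and below them for Abcb11, and for Nppb and Cyr61 the 3 lines run nearly parallel.

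Other genes that bind or organise actin filaments rose by smaller amounts. Of 40 actin cytoskeleton regulators, all tested, 3 rose, among them Tmsb4x and Pdlim5 (list median 0.15), against 0.243% of all tested genes. In all 3 pairs 25 were higher and 1 lower, against 12.1% and 13.8% of all tested genes. Tmsb4x, thymosin beta-4, which sequesters actin monomers, had 3366, 2097 and 2501 scaled reads in the control libraries and 5325, 4979 and 5063 in the MRTFB libraries (log2 0.98, SE 0.11, adjusted p = 0.00931). The call was lost without control replicate 3 (0.97) or MRTFB replicate 2 (0.91), and near-identical copies of this gene may share its reads. Pdlim5, a PDZ and LIM protein of the Z-disc, had 2078, 1912 and 3298 scaled reads in the control libraries and 3487, 3295 and 5362 in the MRTFB libraries, where control replicate 3 overlapped the MRTFB group while each pair rose (0.75, 0.79 and 0.70; adjusted p = 0.0382, 0.898 without the block). It was lost whichever of the 6 libraries was left out (log2 0.65 to 0.83).

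Outside that list the scaffold palladin and the nucleator cordon-bleu were also called, each by a narrow margin. Palld had 611, 852 and 1073 scaled reads in the control libraries and 1152, 1314 and 2037 in the MRTFB libraries (log2 0.82, SE 0.13, adjusted p = 0.0494; 0.640 without the block), the call was lost whichever of the 6 libraries was left out (log2 0.69 to 0.91), and edgeR with the block did not make it. Cobl had 1 control read and 24 MRTFB reads, a ratio of 25.7 (95% counting interval 4.19 to 1058, limma adjusted p = 0.0472), and was not called by edgeR. It passed the filter only because of the MRTFA libraries and was not tested in the fit on the 6 libraries alone. Its call was lost whichever of the 6 libraries was left out (log2 2.16 to 3.25). The uncalled regulators with the smallest p were transgelin-2, Tagln2 (log2 0.47, adjusted p = 0.0770), the actin oxidase gene Mical2 (0.57, 0.0770) and the LIM protein gene Lima1 (0.46, 0.0994).

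Genes of 5 secreted matrix or matricellular proteins rose as well: Thbs1 and Tnc of the extracellular matrix list, and Cyr61, Ctgf and Optc, which are not in that list. Cyr61 (ENSMUSG00000028195.4, chromosome 3, 145646976 to 145649981), the matricellular protein CCN1, had 5498, 7293 and 9249.8 scaled reads in the control libraries and 10928, 13091 and 16319 in the MRTFB libraries (log2 0.88, SE 0.08, adjusted p = 0.00244). The 3 pairs rose by 0.99, 0.84 and 0.82, so the replicates differed in level more than in response. Without the block its adjusted p was 0.561. Ctgf (ENSMUSG00000019997.11, chromosome 10, 24595442 to 24598683), CCN2, had 965, 1036 and 1082 scaled reads in the control libraries and 1677, 2146 and 2589 in the MRTFB libraries; the controls lay within a narrow range and MRTFB replicate 3 was the highest (log2 1.03, SE 0.09, adjusted p = 0.00261). Optc (ENSMUSG00000010311.15, chromosome 1, 133897199 to 133907999), opticin, a small leucine-rich proteoglycan, had 1.01, 1.001 and 0.934 scaled reads in the control libraries and 12.4, 12.2 and 17.7 in the MRTFB libraries. In reads that was 3 against 40, a ratio of 14.3 (95% counting interval 4.55 to 72.2; log2 2.91, SE 0.24, adjusted p = 0.00244), and the 3 control values were at the limit of detection.

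Thrombospondin-1, Thbs1, an adhesive glycoprotein that binds and activates latent TGF-beta, had 18.1, 25.04 and 49.5 scaled reads in the control libraries and 76.5, 115 and 125 in the MRTFB libraries (log2 1.83, SE 0.25, adjusted p = 0.0228; 0.160 without the block). It was lost without control replicate 1 (1.71), control replicate 2 (1.62), MRTFB replicate 1 (1.80), MRTFB replicate 2 (1.80) or MRTFB replicate 3 (1.88). Tenascin-C, Tnc, had 761, 697 and 888 scaled reads in the control libraries and 1076, 999.7 and 1469 in the MRTFB libraries (log2 0.58, SE 0.08, adjusted p = 0.0228; 0.494 without the block) and was lost whichever of the 6 libraries was left out (log2 0.50 to 0.63). Of 25 tested extracellular matrix genes these were the 2 called (0.25% of all tested genes were called), with a list median of 0.20. In all 3 pairs 11 were higher, against 12.1% of all tested genes. Cyr61, Ctgf and F3 were the 3 called of 23 YAP-TAZ targets (list median 0.03), in which Tgfb2 (0.41, adjusted p = 0.227), Tead1 (0.33) and Yap1 itself (−0.30, adjusted p = 0.233) were not called. Collagen Col1a1 was just past the threshold, with 1373, 2535 and 537 scaled reads in the control libraries and 3670.1, 5959 and 1018 in the MRTFB libraries (log2 1.19, adjusted p = 0.0521). Replicate 3 was the lowest of its group for Col1a1 in both groups, and the groups overlapped.

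Among genes of signalling and the cell surface, the natriuretic peptide gene Nppb had the second smallest p of all. Nppb (ENSMUSG00000029019.8, chromosome 4, 147985788 to 147987205), a cardiac hormone gene that SRF cofactors activate, had 195, 278 and 462 scaled reads in the control libraries and 478, 818 and 1301 in the MRTFB libraries (log2 1.44, SE 0.08, adjusted p = 0.000136). The lowest MRTFB library was only a little above the highest control, but the pairs rose by 1.29, 1.55 and 1.49, and without the block its adjusted p was 0.865. Tissue factor F3, the cell-surface starter of coagulation, had 1389, 1325 and 1560.5 scaled reads in the control libraries and 2171, 2174 and 2316 in the MRTFB libraries (log2 0.64, SE 0.07, adjusted p = 0.0107; 0.0598 without the block). The F3 call was lost without control replicate 1 (0.67), control replicate 2 (0.62), control replicate 3 (0.64), MRTFB replicate 1 (0.62) or MRTFB replicate 2 (0.61). It was the only one called of 9 tested genes of plasminogen and coagulation. The death receptor gene Fas (ENSMUSG00000024778.12, chromosome 19, 34290666 to 34327772) had 41.3, 36.1 and 60.7 scaled reads in the control libraries and 179, 119.6 and 137 in the MRTFB libraries (log2 1.65, SE 0.19, adjusted p = 0.0109); every MRTFB library was above the highest control, and the call was lost without control replicate 1 (1.55), control replicate 2 (1.55), MRTFB replicate 1 (1.42) or MRTFB replicate 2 (1.71).

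The growth factor receptor gene Egfr had 433, 308 and 532 scaled reads in the control libraries and 661, 565 and 947 in the MRTFB libraries (log2 0.77, SE 0.11, adjusted p = 0.0235; 0.846 without the block), and its call was lost whichever of the 6 libraries was left out (log2 0.67 to 0.86). Akap12, which anchors protein kinase A, had the smallest rise of all called genes and closely spaced replicates, 3965, 4211 and 4118 in control and 5807, 5608 and 5608 in MRTFB libraries (log2 0.47, SE 0.06, adjusted p = 0.0228). It was lost whichever of the 6 libraries was left out (log2 0.43 to 0.49). The SLAM-family surface receptor gene Slamf9 had 7.05, 10.01 and 16.8 scaled reads in the control libraries and 54.02, 34.8 and 43.03 in the MRTFB libraries (log2 1.93, SE 0.30, adjusted p = 0.0494; 0.0598 without the block). It was lost whichever of the 6 libraries was left out (log2 1.55 to 2.25), and edgeR with the block did not call it.

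Both an epithelial keratin and a desmosomal gene rose. Keratin 7, Krt7, a marker of simple epithelia, had 96.7, 75.1 and 90.6 scaled reads in the control libraries and 177, 186 and 235 in the MRTFB libraries (log2 1.18, SE 0.16, adjusted p = 0.0228), and was lost whichever of the 6 libraries was left out (log2 1.04 to 1.30). It was the only one called of 12 tested mammary epithelial and keratin genes (list median 0.54), against 0.25% of all tested genes called. In all 3 pairs 7 were higher and 2 lower, against 12.1% and 13.8% of all tested genes. The epithelial transcription factor gene Elf3 was not called (1.01, adjusted p = 0.195), nor were Krt80 (0.38) and Krt8 (0.13, 95% interval −0.12 to 0.37). Epcam, also uncalled, was lower in each pair, with 30.2, 27.04 and 69.1 in control and 20.3, 16.9 and 43.03 in MRTFB libraries. Pkp2, plakophilin-2, had 2213, 2282 and 3249.9 scaled reads in the control libraries and 3206, 3685 and 4761 in the MRTFB libraries. Control replicate 3 overlapped the MRTFB group, and the pairs rose by 0.53, 0.69 and 0.55 (adjusted p = 0.0228, 1 without the block). Its call was lost whichever of the 6 libraries was left out (log2 0.51 to 0.64).

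4 further genes rose. The RNA-binding splicing regulator gene Celf2 had 67.5, 78.1 and 126 scaled reads in the control libraries and 224, 228 and 231 in the MRTFB libraries (log2 1.37, SE 0.20, adjusted p = 0.0337; 0.0669 without the block). It was lost without control replicate 1 (1.24), control replicate 2 (1.23), MRTFB replicate 1 (1.25), MRTFB replicate 2 (1.40) or MRTFB replicate 3 (1.47). Psd3, an exchange factor for the small GTPase ARF6, had 9.06, 10.01 and 9.34 scaled reads in the control libraries and 38.3, 34.8 and 25.4 in the MRTFB libraries (log2 1.67, SE 0.23, adjusted p = 0.0228), and its call was lost whichever of the 6 libraries was left out (log2 1.53 to 1.82). The long non-coding RNA gene Lincenc1 had 17.1, 12.02 and 27.1 scaled reads in the control libraries and 42.8, 67.8 and 93.8 in the MRTFB libraries (log2 1.81, SE 0.22, adjusted p = 0.0131; 0.224 without the block) and was lost without control replicate 3 (1.83), MRTFB replicate 1 (1.96) or MRTFB replicate 2 (1.64). The predicted gene Gm43455, named because it was 1 of the 3 kept under every alternative above, had 26.2, 20.03 and 21.5 scaled reads in the control libraries and 65.3, 64.96 and 62.9 in the MRTFB libraries (log2 1.48, SE 0.19, adjusted p = 0.0171), and was lost whichever of the 6 libraries was left out (log2 1.39 to 1.58).

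Abcb11 was the gene that fell. Abcb11 (ENSMUSG00000027048.15, chromosome 2, 69238282 to 69342616), the bile salt export pump of liver, is little expressed in these cells: it had 22.2, 16.02 and 19.6 scaled reads in the control libraries and 1.13, 2.82 and 0 in the MRTFB libraries (log2 −3.32, SE 0.46, adjusted p = 0.0234). In reads that was 59 against 4, a ratio of control to MRTFB of 13.8 (95% counting interval 5.10 to 52.2). All 3 MRTFB libraries were at or below the limit that 0 reads allows. The call was lost without control replicate 1 (−3.15), control replicate 2 (−3.73), control replicate 3 (−3.09) or MRTFB replicate 1 (−3.41), and edgeR over the 9 libraries did not make it, with or without the block. Of the genes averaging at least 50, those lower with the smallest p were not called: Tex19.2 (−0.62, adjusted p = 0.101), the peptidase gene Dpp4 (−0.57), the GTPase-activating protein gene Arhgap18 (−0.36), Arl4c (−0.30), Yap1 and the semaphorin gene Sema5a (−0.88). At that level 21 genes were at least 2-fold higher, called or not, and 2 at least 2-fold lower.

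Just past the threshold, the genes averaging at least 50 included Col1a1, Lipn, Dusp1, Lpp and Tagln2, all with positive values. Genes below that mean went both ways. Tex101 (mean 41.9) stood at −2.95 (limma adjusted p = 0.0670), lower in all 3 pairs and with no overlap of the groups. Fhl1 (mean 26.6) stood at 3.41 (limma adjusted p = 0.0647). The lipase gene Lipn had 32.2, 51.1 and 39.2 scaled reads in the control libraries and 109, 113 and 91.6 in the MRTFB libraries (log2 1.35, adjusted p = 0.0591). The phosphatase gene Dusp1, an immediate early gene, stood at 0.60 (0.0591) and the focal adhesion LIM gene Lpp at 0.70 (0.0670).

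Over 25 gene lists with 570 distinct genes, 11 lists held a called member and 14 held none, and no list had a member that fell. As only 0.25% of all tested genes were called, a list of this size with no call does not set its members apart. Of 26 tested integrin and focal adhesion genes none was called, with a median of 0.07. In all 3 pairs 11 of them (42.3%) were higher and 4 lower, against 12.1% and 13.8% of all tested genes. Tns1 (log2 0.39, limma adjusted p = 0.129), Tgfb1i1 (0.38) and Itga1 (0.32) had the smallest p at a mean of at least 50. In the striated muscle list 1 of 18 tested genes rose, Acta1, with a median of 0.47; Ankrd1, a cardiac stress gene, stood at 0.71 (adjusted p = 0.440) and the Z-disc gene Ldb3 at 0.77. Immediate early genes, the other class of SRF targets, had none called of 23 (median 0.04; 4 higher in all 3 pairs), with Ier5 at 0.24 and Fosl2 at 0.19. Caveola genes had none called of 10 (median 0.03), with Sdpr at 0.55 and Ptrf at −0.08. Mesenchymal transition genes had none called of 19 (median 0.01), with S100a4 at 0.42, Mmp2 at 0.20 and Tgfbr2 at −0.23.

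**Figure D3:**
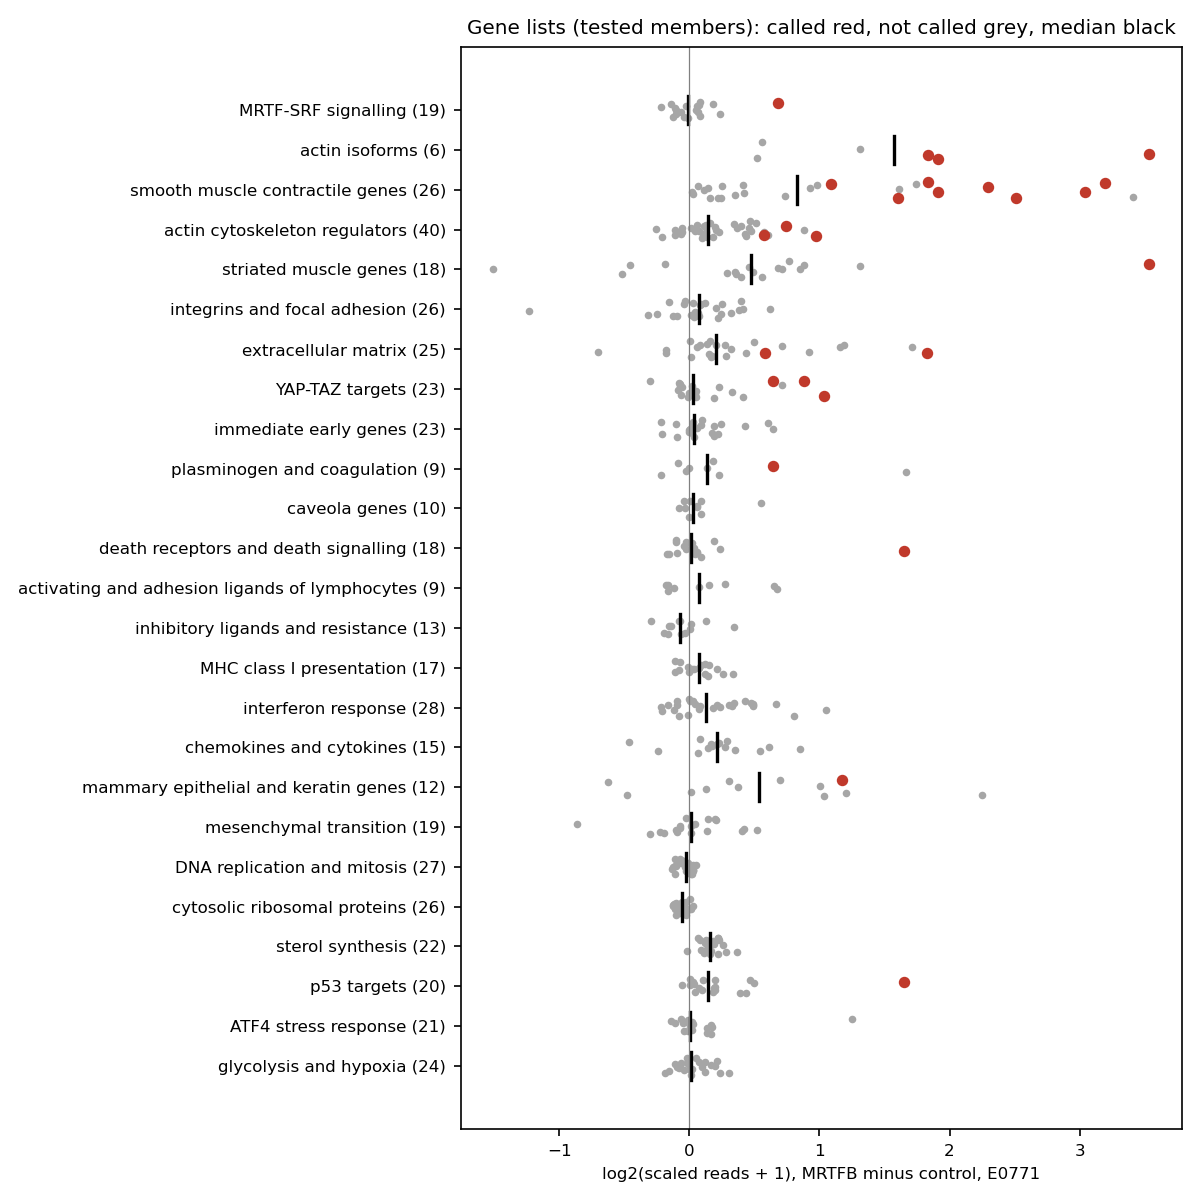
Log2 difference (MRTFB minus control) of every tested member of 25 gene lists, with called members in red, others in grey and the list median as a black bar; the number of tested members is in parentheses and the vertical scatter is random. Red points lie to the right of 0 in 11 lists, and the medians of actin isoforms (1.57) and smooth muscle contractile genes (0.83) are the farthest from 0.

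Genes by which tumour cells meet lymphocytes were mostly uncalled, as were the tested genes at large, of which 0.25% were called. Fas was the only one called of 18 tested genes of death receptors and death signalling (median 0.02), where the TRAIL receptor gene Tnfrsf10b stood at 0.19, Ripk3 at 0.23 and Tnfrsf12a at −0.16. Of 9 tested activating and adhesion ligands none was called (median 0.07), with Pvr, a ligand of DNAM-1, at 0.27 (adjusted p = 0.365), the adhesion molecule gene Icam1 at 0.67 and the NKG2D ligand gene Ulbp1 at 0.65. Inhibitory ligands and resistance genes had none called of 13 (median −0.07; 3 lower in all 3 pairs, against 13.8% of all tested genes, and none higher), with Bcl2 at −0.30, Nt5e at −0.19 and Cd59a at 0.34. MHC class I presentation had none called of 17 (median 0.08), with the transactivator gene Nlrc5 at 0.34 and the peptide transporter gene Tap1 at 0.26. Interferon-response genes had none called of 28 (median 0.13), and here the replicates were far apart: Oas3 had 15.1, 3.004 and 225 scaled reads in the control libraries and 13.5, 10.4 and 353 in the MRTFB libraries, so that replicate 3 was the highest by far in both groups. Chemokines and cytokines had none called of 15 (median 0.21), with Ccl2 at 0.21 and Vegfa at 0.17. Of these 15, 8 were higher in all 3 pairs, against 12.1% of all tested genes. Of 10 immune markers 4 were in the table, summing to 143 to 316 in control and 202 to 259 in MRTFB libraries.

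Growth and metabolic programmes lay close to 0, with few calls, as over all tested genes (0.25% called). DNA replication and mitosis genes had none called of 27 (median −0.03, range −0.13 to 0.05; 6 lower in all 3 pairs, against 13.8% of all tested genes, and none higher), with the licensing factor gene Mcm7 at −0.13 (95% interval −0.28 to 0.03) and cyclin D1, Ccnd1, at −0.11. Cytosolic ribosomal proteins had none called of 26 (median −0.06), with Rpl6 at −0.10, Rps7 at −0.13 and Rpl11 at −0.10. Sterol synthesis genes had none called of 22 either, yet 21 were positive and 15 were higher in all 3 pairs (median 0.16; 12.1% of all tested genes were higher in all 3 pairs). Among them were Hsd17b7 (0.37, adjusted p = 0.365), farnesyl diphosphate synthase Fdps (0.23) and squalene synthase Fdft1 (0.28). Of 20 tested p53 targets Fas alone was called (median 0.14), with Plk2 at 0.46 (adjusted p = 0.101) and Eda2r at 0.39. ATF4 stress genes (21 tested, median 0.01) and glycolysis and hypoxia genes (24 tested, median 0.01) had none called, with Slc7a11 at 0.17 and Pfkp at 0.24.

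**Figure D4:**
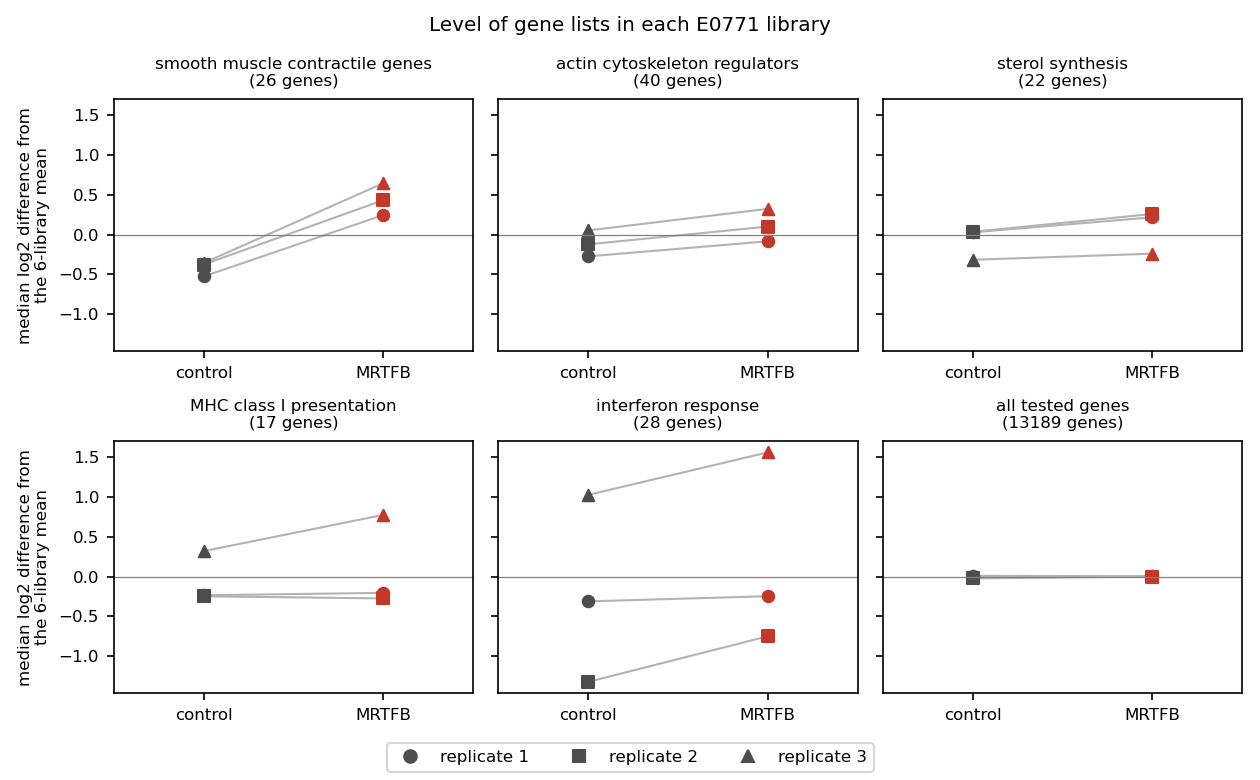
Median log2 level of 5 gene lists and of all tested genes in each E0771 control (grey) and MRTFB (red) library, relative to the mean of the 6 libraries, with lines joining equal replicate numbers. Smooth muscle genes separate the groups (−0.53 to −0.36 against 0.24 to 0.65), whereas interferon-response genes separate replicate 3 (1.03 and 1.56) from the others.

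The E0771 libraries with MRTFA allow the size of the response to be set beside that of the paralog. Both comparisons with control use the same 3 control libraries, so only the direct difference between MRTFB and MRTFA was tested. By that test 26 of the 32 genes that rose were lower with MRTFB than with MRTFA, against 23.2% of all tested genes lower, 20.6% higher and 43.8% called either way; the MRTFB libraries enter both this test and the calls against control. Acta2 had 716670.0, 813607 and 675541 scaled reads in the MRTFA libraries, so MRTFB minus MRTFA was −3.40 (adjusted p = 6.44e-07). Tagln had 41772, 48323 and 23674 there (difference −3.41) and Actg2 99623, 102902 and 77309 (−6.67). Optc, at the limit of detection in control, had 954, 1212 and 869 (−6.07), and Cobl had 1965, 2334 and 1969.7 (−7.95).

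A few genes departed from this order. Mkl2 was higher with MRTFB (0.87, adjusted p = 1.48e-05), and so was Akap12, with 5098, 5000.2 and 4922 in MRTFA libraries (0.18, adjusted p = 0.0472). For 4 genes the difference was not called. Its 95% interval was −0.72 to 0.39 for Thbs1, −0.13 to 0.78 for Celf2, −0.88 to 0.49 for Slamf9 and −0.25 to 0.61 for Gm43455. The fitted values against control were then 1.83 with MRTFB and 1.99 with MRTFA for Thbs1, 1.37 and 1.05 for Celf2, and 1.93 and 2.12 for Slamf9. Abcb11 was lower with MRTFB than with MRTFA (−2.69, adjusted p = 0.00143), which had 8.96, 13.9 and 13.6. Among uncalled genes Lipn stood at 1.35 with MRTFB and −1.16 with MRTFA. The paralog's own gene, Mkl1, stood at 3.34 in the MRTFA libraries against 0.68 for Mkl2 in the MRTFB libraries, so a difference between the proteins and a difference in dose cannot be told apart.

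**Figure D5:**
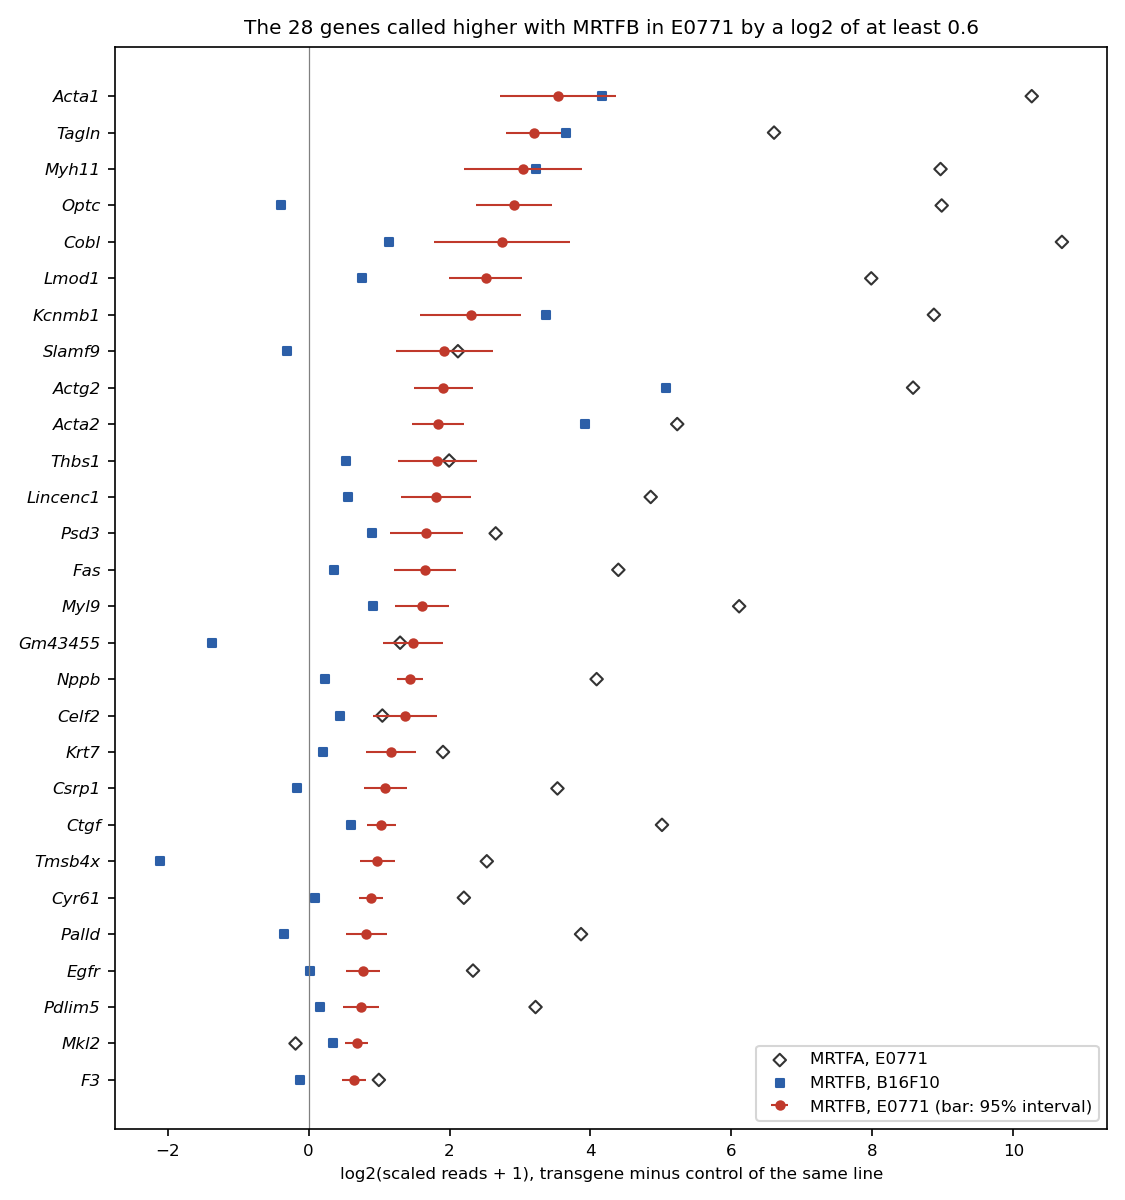
Log2 difference from the control of the same line for the 28 genes that rose by at least 0.6 with MRTFB in E0771: MRTFB in E0771 (red, bar: 95% interval), MRTFA in E0771 (open diamonds) and MRTFB in B16F10 (blue squares). The red and diamond values share their controls. Diamonds lie far to the right of the red points for contractile genes such as Acta1 (10.26 against 3.54), and the blue square of Tmsb4x lies at −2.10.

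B16F10 melanoma cells, which have their own controls, differed from E0771 in how far several of these genes moved with MRTFB. The difference between the lines in the MRTFB effect (E0771 minus B16F10) was called for 81 of 14859 genes (0.545%), 62 positive (0.417%) and 19 negative (0.128%). Of the 33 genes called in E0771, 8 had a called positive difference, 1 a negative one, and for 24 the difference was not called. Mkl2 itself stood at 0.35 in B16F10 (limma adjusted p = 0.0506) against 0.68 in E0771. Its difference of 0.34 was not called (adjusted p = 0.263). A difference between the lines and a difference in dose cannot be told apart here. Tmsb4x moved in opposite directions: in B16F10 it had 669, 561 and 757 in control and 88.6, 116 and 342 in MRTFB libraries (log2 −2.10, adjusted p = 0.000796), a difference of 3.08 (SE 0.32, adjusted p = 0.00299). Optc was expressed in B16F10 controls at 27.9, 33.1 and 28.6 and had 22.9, 21.7 and 23.1 with MRTFB (log2 −0.39, 95% interval −0.88 to 0.10; difference 3.30, adjusted p = 0.00264). Csrp1 (1.25), F3 (0.77), Nppb (1.21), Cyr61 (0.80) and Lmod1 (1.76) had positive differences too, with B16F10 values of −0.16, −0.13, 0.24, 0.09 and 0.76. The remaining positive one was Gm43455 (2.85, adjusted p = 0.0238).

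Actg2 was the gene that rose more in B16F10, from 18.3, 11.7 and 60.1 to 528, 281 and 3772 (log2 5.07; difference −3.16, adjusted p = 0.0398). Acta2 there went from 463, 176 and 798 to 3856, 2146 and 28018 (log2 3.93) and Tnc from 13.5, 2.92 and 45.8 to 116, 41.4 and 1171 (3.70), and their differences between lines were not called (−2.10, adjusted p = 0.142; −3.12, adjusted p = 0.0966). For these 3 genes B16F10 replicate 3 was the highest of its group in both groups. For Tagln the B16F10 value was 3.66 and the difference −0.47 (adjusted p = 0.817), and for Acta1 4.16 and −0.63. The line difference rested on few libraries. Over leaving out single libraries or replicate numbers the count of 81 ranged from 0 to 209, and none remained without replicate number 1 or 2 in both lines (limma; 1166 and 758 genes then had an unadjusted p under 0.05).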

How the data were processed

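RNA libraries of the 3 control and 3 MRTFB samples of E0771 were compared. The submitters' processing notes name cutadapt 1.6, the mm10 build, STAR 2.5.0a, HTSeq 0.5.3 and DESeq. The version of DESeq, the gene annotation, the strandedness and the counting mode were not given in the sources used here. The deposited values are a signal, reads divided by the authors' size factor, in 18909 genes with at least 15 reads over the 18 libraries. Values were whole multiples of each library's smallest step within 0.001 read, for 100% of values, so reads were recovered and used for edgeR and DESeq2. Groups and replicate numbers were read from the sample titles.

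Genes with at least 10 scaled reads in at least 3 libraries were fitted with limma 3.58.1 (trend, R 4.3.3) on log2(scaled reads + 1). The fit covered all 9 E0771 libraries, which share 1 estimate of the spread. Replicate number was a block because the definition of the comparison named it so. Equal numbers deviated together in each of the 3 pairs, and different numbers had r between −0.435 and −0.016. Deviations were taken from each group's mean of 3 libraries, so positive r for equal numbers itself pushes the others below 0. These r are between MRTFB and control libraries. Between MRTFB and MRTFA libraries equal numbers had r = 0.134, 0.474 and 0.361, and different numbers −0.412 to 0.097, so pairing there was weakest for replicate 1. The meaning of the numbers is not labelled. MRTFB minus MRTFA came from the same fit, and the difference between lines from all 18 libraries with the block nested in line. P-values are two-sided and adjusted by Benjamini-Hochberg over all tested genes. Replicates differed by more than sampling noise (chi-square per degree of freedom 22.6 to 59.2 for the 6 libraries). Without molecular identifiers, intervals of read ratios cover counting error only.

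Alternatives were edgeR 4.0.16, DESeq2 1.42.0, limma-voom, other scalings, pseudocounts of 0.5 and 10, a minimum of 50 or none, no block, fits on the 6 libraries alone, and leaving out libraries. Fits with no trend, edgeR on the 6 libraries alone, edgeR without the block, the removal of MRTFA libraries and the CArG match with 1 letter off were added after seeing the data. Named genes were both paralogs' own genes, all called genes other than predicted ones, up to 3 further members of each list with the smallest p and a mean of at least 50, and the 6 nearest genes past the threshold and 6 lower genes at that mean; those of them that the text does not name are not reported here. The genes, lists and rules were chosen with earlier results of these data known. GENCODE M21 held 18827 of the identifiers.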

Additional observations from a re-analysis of the deposited data

Results flagged for a closer look

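9 genes called in E0771 had an MRTFB effect that differed between the lines by the test of the difference itself (E0771 minus B16F10, log2, limma with the replicate block nested in line). The largest of these was Optc at 3.30 (adjusted p = 0.00264), called under 15 of 15 alternatives and 13 of 15 fits that left out libraries. Tmsb4x stood at 3.08 (adjusted p = 0.00299), called under 14 and 13, and Nppb at 1.21 (0.00794), called under 12 and 13. Csrp1 stood at 1.25 (0.0124; 12 and 11), F3 at 0.77 (0.0124; 12 and 9) and Cyr61 at 0.80 (0.0208; 11 and 6). Lmod1 at 1.76 (0.0468) and Actg2 at −3.16 (0.0398) were each called in 3 of the 15 fits that left out libraries, and under 6 and 9 of the alternatives. The predicted gene Gm43455 stood at 2.85 (0.0238), called under 9 of 14 alternatives and 4 of 15 fits that left out libraries. Without the block the adjusted p was 0.000102 for Optc, 0.0297 for Tmsb4x and 0.0368 for Gm43455, and the other 6 were not called. Mkl2 stood at 0.35 in B16F10 and 0.68 in E0771, so line and dose cannot be told apart for these genes.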

How the results depend on the processing

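The count of 33 called genes with MRTFB in E0771 moved to 19 without the replicate block (14 of the 33 lost), 13 by edgeR without it, 9 by limma with no trend, 70 by DESeq2, and, on the 6 libraries alone, to 244 by limma, 134 by edgeR and 10 by limma with no trend. Of the 244, 48 were lower, as were 14 of the 134 and none of the 10, against 1 of the 33. The share of calls that fell thus also depended on how the spread was estimated. In the fit behind the count of 244, limma's prior degrees of freedom were infinite, so every gene was given the spread of the trend. Scaling, pseudocount and filter gave 29 to 34 and voom 28. Leaving out single libraries or replicate numbers gave 11 to 42. MRTFB against MRTFA, 5780 genes, gave 3306 on the groups compared with no trend and 2140 to 6011 when libraries or replicate numbers were left out. The line difference, 81 genes, gave 17 without the replicate block, 16 by edgeR without it, 34 on the groups compared and 1 there with no trend, 38 with no trend, 138 with a pseudocount of 10, 200 by DESeq2 and 0 to 209 when libraries were left out; without replicate number 1 or 2 none was called, with 1166 and 758 genes at an unadjusted p under 0.05. Over the alternatives, the called genes kept direction in every fit and their call in 521 gene-by-setting values, and lost it in 265.

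No called gene changed sign. Among uncalled genes Rpl11 turned to 0.000924 without control replicate 1, and Krt8 to −0.0268 without replicate 3 and −0.0306 without MRTFB replicate 3. Mkl1, at −0.01, turned to 0.00521 with edgeR on the groups compared, 0.00496 with upper-quartile scaling, 0.00811 and 0.0129 with edgeR with and without the block, 0.0101 with DESeq2, 0.0481 and 0.0772 without replicates 1 and 2, 0.00862 without control replicate 2, and 0.0800 and 0.104 without MRTFB replicates 1 and 2. When libraries or replicate numbers were left out, Rpl11 ranged from −0.162 to 0.000924, Krt8 from −0.0306 to 0.229 and Mkl1 from −0.204 to 0.104. The causes were not tested. At 27607055 to 34173182 reads per library, genes such as Cobl, Optc and Abcb11 rest on fewer than 100 reads in all.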

Other observations

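Interferon-response genes differed between replicate numbers in every E0771 group, whatever the transgene. Irf7, a transcription factor gene induced by interferon, had 22.2, 19.03 and 214 scaled reads in the control libraries, 18.01, 32.9 and 425 with MRTFB and 139, 105 and 1929 with MRTFA. The antiviral gene Rsad2 had 193, 109 and 732 in control, 259, 129 and 872 with MRTFB and 289.9, 141 and 2648 with MRTFA. Isg15, a ubiquitin-like modifier, had 86.6, 72.1 and 297, 102, 104 and 484 and 259, 188 and 2023. Replicate 3 was the highest of its group for these genes in control, MRTFB and MRTFA libraries of E0771. In B16F10 they were also highest in replicate 3, in control and in MRTFB libraries. Isg15 had 377, 273 and 724 in B16F10 controls and 191, 172 and 863 with MRTFB. Ifit1 and Cxcl10 were not highest in replicate 3 of the B16F10 controls. In E0771, genes of MHC class I presentation had their highest median in replicate 3 as well, at 0.32 in control and 0.78 with MRTFB, against −0.28 to −0.21 in replicates 1 and 2. What the replicate numbers stand for was not given in the sources used here.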
